A study of Mus musculus with 2 samples.

Results

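Dorsal skin of mouse pups lacking Mpzl3 was compared with that of wild-type littermates at 9 days of age (P9), on 1 array read in 2 colours. By the labels the null RNA carried Cy5 and the wild-type RNA Cy3, and the array was chosen by its age label. A gene's value is the mean log2 ratio of null over wild type over the probes that name it and have a value, so a positive value means more signal from null skin. This gave 18269 genes of the 18855 that a probe of the platform names. There were no replicates, so a value has no error between animals and no p-value is given, and dye and genotype cannot be told apart. The labels describe littermates, but do not say how many pups each channel stands for. The second array of the study holds the same comparison, null in Cy5 over wild type in Cy3, in pups 1 day old (P1), and its values stand beside those of P9 where they help to read them.

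Mpzl3 encodes a membrane protein of the myelin protein zero family, with an immunoglobulin-like domain. Mice without it are known for inflamed, scaly skin, hair loss and altered sebaceous glands. At the end of the first postnatal week and beyond it, mouse back skin carries a stratified epidermis over hair follicles in their first growth phase. Keratinocytes of such an epidermis cross-link small proline-rich and other envelope proteins into the cornified layer, and release antimicrobial proteins and cytokines when the barrier is disturbed.

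The channels differed in transcripts of the sex chromosomes, and this applies to every value below. Xist, the RNA that coats the inactive X chromosome, had probe values of 2.26, 3.76, 3.85 and 4.81 at P9, all far above 0. At P1 the same probes were at 0.12, −1.42, −1.41 and −1.42. On the Y chromosome, Eif2s3y was at −3.98 and Kdm5d at −1.76 at P9, and both were blank at P1. Uty had P9 probe values of −3.43, −2.57, −1.97 and 0, and is not called because its probes did not all have 1 sign. Usp9y, Zfy1, Zfy2 and Sry were nearer to 0 at P9, at −0.12, −0.24, −0.05 and −0.29. Of the 640 genes measured on the X chromosome, 11 were past 2-fold higher and 10 lower, with a median of −0.056. These are 1.72% and 1.56% of the X-linked genes, against 2.24% and 0.465% of all genes, so the share of lower genes was above that of all genes, and the 12 on the Y chromosome included 2 lower genes. X-linked genes known to escape inactivation had a median of 0.20 over 8 genes at P9, against −0.42 at P1. Kdm6a was at 0.42 at P9 and −0.43 at P1, and Kdm5c was alike at both ages, at 0.54 and 0.50. Usp9x and Eif2s3x were below 0 at both ages, at −0.38 and −0.13 at P9. The part of sex in the other values was not tested.

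The targeted gene gave no check of the genotype labels. Mpzl3 was read by 1 probe at 0.20 at P9 and −0.21 at P1, within the pooled spread between probes of a gene, an SD of 0.36, and its position relative to the deleted part is not known here. Its relatives and the ferredoxins, mitochondrial electron carriers, lay close to 0 as well, with Mpzl2 at 0.02, Mpzl1 at −0.27, Fdx1 at −0.27 and Fdx2 at 0.14. A ratio holds no expression level, so whether the samples were skin could not be checked from marker levels.

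Across all genes the P9 values were narrow and slightly tilted upwards. The median was 0.023, the 5th percentile −0.50 and the 95th percentile 0.66, and 53.4% of genes lay above 0. A gene is called higher or lower here where its ratio was 2-fold or more in either direction and its probes all had 1 sign. By this rule 409 genes were higher, 2.24% of those measured, and 85 were lower, 0.465%. Counts in gene groups below are read against these shares. Among the 7735 genes with at least 2 probes the shares were smaller, 0.297% higher and 0.129% lower. The 10534 genes with 1 probe held 386 of the higher genes and 75 of the lower ones. The share of all genes is therefore a low yardstick for groups read mostly by 1 probe. In whole tissue, a change in the number of cells of a type and a change in RNA per cell cannot be told apart.

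The genes that passed on 2 or more probes have an internal check that a single probe lacks. They were 23 higher and 10 lower genes. In 11 of the higher and 3 of the lower genes every probe was past 2-fold on its own. Besides Xist, the higher genes of this kind included Muc5ac, a gel-forming mucin of airway and stomach surfaces, with probes at 1.25 and 1.90. Ccl19, the chemokine that draws cells with the receptor CCR7 to lymphoid tissue, had probes at 1.15 and 1.19. Serpinb3a, a serine and cysteine protease inhibitor of squamous epithelium, had probes at 1.03 and 1.08. Krt7, a keratin of simple and glandular epithelium, had probes at 1.09 and 1.20, and the muscle methyltransferase gene Smyd1 had probes at 1.27 and 1.34. Clnk, an adaptor of immunoreceptor signalling, was at 1.05 and 1.29 and the hair gene Krtap3-1 at 1.02 and 1.08. These pairs agree within the pooled spread between probes, except that of Muc5ac.

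For other genes of this set the probes did not agree on the size. Itgax, which encodes the integrin CD11c of dendritic cells, had probes at 0.65 and 1.60, and Cx3cr1, the fractalkine receptor of monocytes and Langerhans cell precursors, at 0.41 and 1.92. Fos, the immediate early transcription factor, had probes at 0.32 and 1.79. Was, an X-linked actin regulator of blood cells, was tighter at 0.94 and 1.21, as was Fcgbp, a protein of mucus, at 0.94 and 1.25. The interleukin-15 receptor gene Il15ra was at 0.76 and 1.55. Among the lower genes, every probe passed for Ttpa, the vitamin E transfer protein, at −1.24 and −1.08, for Rgs18, a regulator of G protein signalling, at a mean of −1.12, and for the predicted gene Gm14295. The remaining lower genes were Gm4788, Zfp950, Zfp970, Zfp982, Trim59, Lysmd3 and Cops2. Of the 10 lower genes all had negative values at P1 too.

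**Figure D1:**
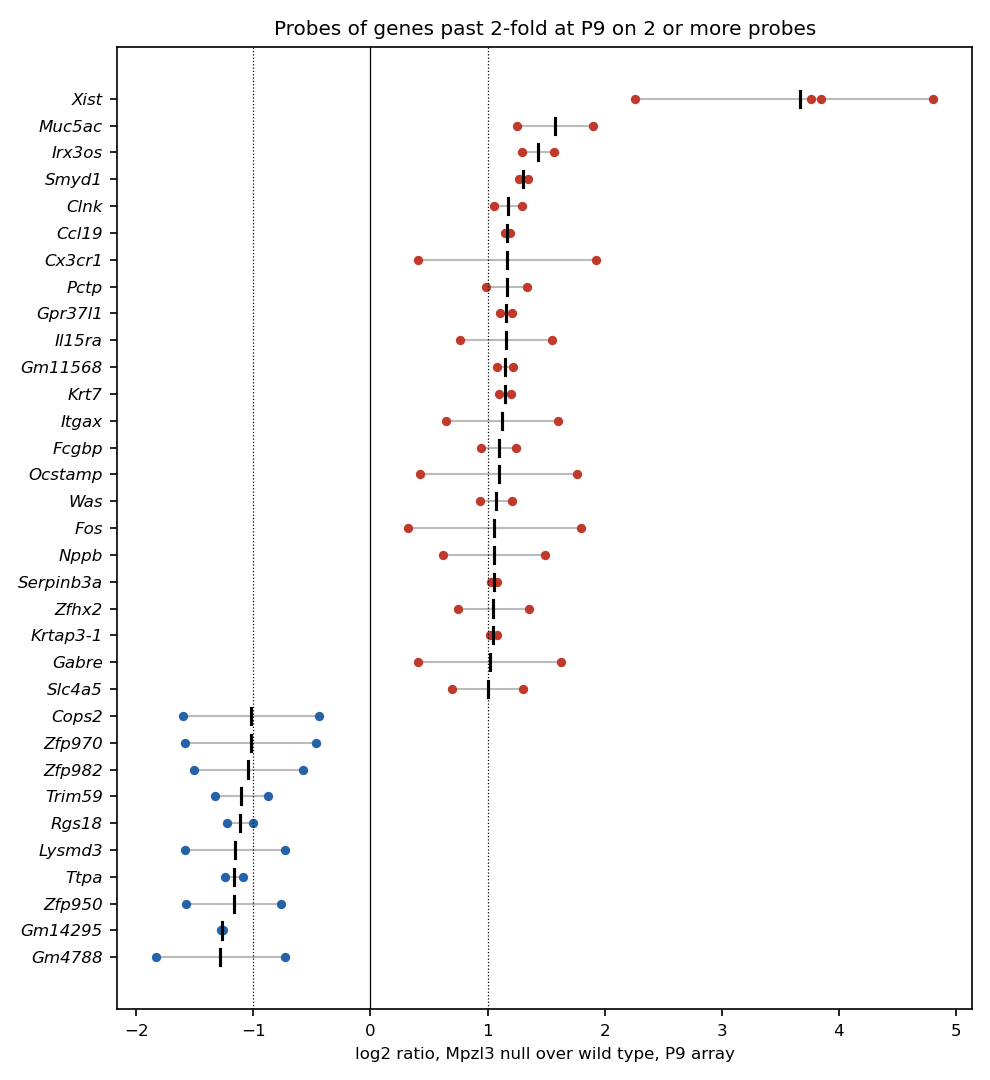
Each point is the P9 log2 ratio of null over wild type at 1 probe, for the genes past 2-fold on 2 or more probes, with a black bar at the mean and dotted lines at 2-fold. Red genes are higher and blue genes lower; the probes of Ccl19, Serpinb3a and Smyd1 lie close together, those of Cx3cr1, Itgax and Fos far apart.

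Among genes of the cornified envelope, the small proline-rich family held the most members past 2-fold higher in null skin at P9. Of the 12 small proline-rich genes measured, 6 were past 2-fold higher, or 50% against 2.24% of all genes. Sprr2d was 4.42-fold higher at 2.14 and stood at 0.71 at P1. Sprr2g, Sprr2j-ps, Sprr2e, Sprr2k and Sprr2b were between 1.03 and 1.44 at P9 and between 0.70 and 1.27 at P1. Within the family Sprr2h at 0.76, Sprr2a1 at 0.72, Sprr4 at 0.57, Sprr1b at 0.46 and Sprr2f at 0.34 were within 2-fold. Sprr3, a member best known from oral and oesophageal epithelium, was the only one below 0, at −0.32, although its P1 value was 2.03. Sprr1a was blank at P9. All but Sprr2a1, with 2 probes, rest on a single probe, and members of this family are alike in sequence, so a probe may read a neighbour.

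The start regions of these genes on mouse chromosome 3 are shown because several members past 2-fold share a short sequence there. In RefSeq windows of GRCm38.p6, from 250 bases before to 50 after the start site, 10 of the 12 measured family members had an entry. The letters TGANTCA, the site that AP-1 factors of the Fos and Jun families are known to bind, read the same on both strands and were searched on both. They occurred in 7 of the 10 windows, and in 7.81% of all 32841 windows. Members of this family are alike in sequence, so their windows are not independent and their count cannot be weighed against that share. Whether the shared letters stem from common descent was not tested. The 4 members past 2-fold that had a window, Sprr2d, Sprr2e, Sprr2k and Sprr2b, all held it, as did Sprr1b, Sprr2f and Sprr2h, whereas Sprr2a1, Sprr3 and Sprr4 did not. In the Sprr2 genes the first copy began at positions −198 to −193, counted from the start site. The 250 bases before each start are given 5′ to 3′ for the 4 higher genes and for Sprr2a1, with TGANTCA in capitals.
Sprr2d, chr3:92338890-92339139, plus strand: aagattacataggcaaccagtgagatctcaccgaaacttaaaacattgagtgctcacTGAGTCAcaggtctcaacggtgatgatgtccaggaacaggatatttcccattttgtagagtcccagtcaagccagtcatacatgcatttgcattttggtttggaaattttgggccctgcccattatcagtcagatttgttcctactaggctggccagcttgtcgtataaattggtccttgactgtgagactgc
Sprr2e, chr3:92351893-92352142, plus strand: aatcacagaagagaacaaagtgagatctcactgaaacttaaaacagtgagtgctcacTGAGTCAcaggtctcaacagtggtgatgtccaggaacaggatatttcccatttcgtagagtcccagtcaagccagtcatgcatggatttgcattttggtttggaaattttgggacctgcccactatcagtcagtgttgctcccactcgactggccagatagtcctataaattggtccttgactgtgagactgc
Sprr2k, chr3:92432332-92432581, plus strand: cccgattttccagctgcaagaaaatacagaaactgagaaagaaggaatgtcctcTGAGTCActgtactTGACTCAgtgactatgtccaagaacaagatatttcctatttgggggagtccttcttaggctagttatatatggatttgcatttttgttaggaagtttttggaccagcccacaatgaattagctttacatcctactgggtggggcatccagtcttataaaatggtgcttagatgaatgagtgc
Sprr2b, chr3:92316455-92316704, plus strand: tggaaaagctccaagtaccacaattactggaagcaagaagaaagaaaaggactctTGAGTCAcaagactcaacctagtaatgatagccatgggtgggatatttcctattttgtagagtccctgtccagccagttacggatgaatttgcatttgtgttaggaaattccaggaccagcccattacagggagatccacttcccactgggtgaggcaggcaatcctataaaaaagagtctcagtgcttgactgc
Sprr2a1, chr3:92215585-92215834, plus strand: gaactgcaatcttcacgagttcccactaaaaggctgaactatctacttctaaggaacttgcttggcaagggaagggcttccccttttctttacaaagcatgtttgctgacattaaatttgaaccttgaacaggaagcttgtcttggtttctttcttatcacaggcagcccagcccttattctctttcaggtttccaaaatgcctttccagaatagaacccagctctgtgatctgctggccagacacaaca
Sprr2d and Sprr2e were identical at 88.0% of these positions and at 36.4% to 55.2% with Sprr2k and Sprr2b, compared base by base without gaps. In the same comparison Sprr2a1 was identical at no more than 24.4% of positions with any of the 4 higher genes. Whether its window is the matching start region was not tested, so its lack of TGANTCA cannot be read as a like-for-like contrast. A match of letters is a description of the windows and not evidence of binding.

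Other envelope genes were shifted by less than 2-fold. The filaggrin and envelope group had a median of 0.39 over 18 genes, with 16 above 0 and 0 past 2-fold. Flg, the precursor of the filament-binding protein filaggrin, was at 0.96 at P9 and 0.06 at P1. Ivl, an early scaffold of the envelope, was at 0.54, the fused-type gene Rptn at 0.51 and Hrnr, which encodes hornerin, at −0.48 on 2 probes. The late cornified envelope genes lay between −0.018 and 0.93 with a median of 0.52 over 14 genes and 0 past 2-fold, and all 12 with a value on both arrays were higher at P9 than at P1. The related gene Lelp1, chosen here after its value was seen, was past 2-fold at 1.22. The enzymes that cross-link or modify these proteins were near 0, with a median of 0.18 over 10 transglutaminase and peptidylarginine deiminase genes and Tgm3 the highest at 0.35. Tgm1, the membrane-bound transglutaminase of keratinocytes, was at −0.10.

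Many keratins had no P9 value. Of 42 keratin genes with a probe, 13 were blank at P9, or 31% against 3.11% of all genes, while 2 were blank at P1. The blanks include the basal keratins Krt5, Krt14 and Krt15, the wound and follicle keratin Krt17, Krt25, Krt26, Krt27 and Krt71 of the inner root sheath, Krt31, Krt33a, Krt35 and Krt87 of the hair shaft, and Krt9 of footpad skin. Why a cell was left blank is not stated, so the keratin values at P9 describe only the 29 genes left. Of these, 23 were above 0 and 4 were past 2-fold higher, namely Krt76, Krt7, Krt16 and Krt34. Krt76, a suprabasal keratin, was at 1.25. Krt16, which keratinocytes make with Krt6 in wounds and hyperproliferative epidermis, was at 1.08 at P9 and −0.13 at P1. Its partners Krt6a and Krt6b were at 0.86 and 0.88, so that the 3 measured stress keratins were alike in size. Krt1 and Krt10, the main pair of the spinous layer, were at 0.50 and 0.64. Basal attachment genes were nearer to 0, with a median of 0.16 over 11 genes, Itga6 at 0.52 and Col17a1 at 0.13.

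Junction genes were not shifted together. The desmosome group had a median of 0.08 over 13 genes and 0 past 2-fold, from Dsc1, the desmocollin of the upper layers, at −0.79 to Pkp3, a plakophilin, at 0.47. Tight and gap junction genes had a median of −0.056 over 17. Cldn8, a tight junction claudin, was 2.62-fold lower at −1.39 and was at −0.77 at P1. The connexin gene Gja1 was at −0.78 at P9 and −1.11 at P1, whereas Cldn1, the main claudin of the epidermal barrier, was at −0.06 on 2 probes.

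Genes that make or process barrier lipids leaned upwards, with 19 of 23 above 0, a median of 0.25 and 0 past 2-fold. Degs2, which makes phytoceramides, was at 0.99, Tmem79, a protein of the lamellar granule system, at 0.95, and Alox12b, the lipoxygenase of the barrier, at 0.86 on 2 probes. Sptlc3 and Aloxe3 were at 0.67 and 0.62. Lipm, an acid lipase of differentiating keratinocytes, was the lowest at −0.44. At P1 the median of the same 23 genes was 0.013, and 17 of the 23 had the higher value at P9. Of the high genes named, Alox12b, Tmem79 and Aloxe3 were already at 0.93, 0.65 and 0.58 at P1. Degs2 was at 0.41 there and Sptlc3 at −0.005.

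Proteases and their inhibitors had members past 2-fold in both directions. Of 20 kallikrein and other protease genes, 3 were past 2-fold higher (15%) and 1 lower (5%), against 2.24% and 0.465% of all genes. The kallikrein Klk6 was at 1.17, and the serine proteases Prss27 and Tmprss11g were at 1.04 and 1.02. Tmprss11e, a related membrane protease, was lower at −1.001 at P9 and −1.31 at P1. Klk5 and Klk7, which are known to cleave corneodesmosomes, were at 0.41 and 0.12. Among 29 inhibitor genes, 1 was higher, Serpinb3a, and 1 lower, Serpina3b, which was at −1.43 at P9 and 0.48 at P1. Serpinb3c, a neighbour of Serpinb3a in sequence, was at 0.85 at P9 and −0.83 at P1, on 2 probes each. Spink5, the inhibitor of epidermal kallikreins, was at 0.72 at P9 and −0.39 at P1.

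Alarmins and antimicrobial proteins supplied some of the largest values outside the receptor families. S100a9 encodes a subunit of calprotectin, and its value of 2.04 is 4.12-fold higher in null skin, against −0.58 at P1. Its partner S100a8 was at 0.33 at P9 and −0.69 at P1, so both subunits had higher values at P9 than at P1 but only one was past 2-fold. All 10 measured S100 genes were above 0, with a median of 0.33, and S100a4 was at 0.71, while S100a3, S100a6, S100a10, S100a14 and S100g were blank. Of 27 antimicrobial and acute phase genes, 3 were past 2-fold higher (11.1%) and 1 lower, with a median of 0.15. Defb14, a beta-defensin of keratinocytes, was at 1.27 at P9 and −0.13 at P1. Defb3 was at 1.13 and Lcn2, which encodes an iron-siderophore binding protein, at 1.10, with 0.80 and 0.56 at P1. Camp, the precursor of cathelicidin, was lower at −1.05. The acute phase genes Saa1, Saa3 and Hp were at 0.10, 0.15 and 0.60.

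Neutrophils are a second source of S100a9, Lcn2 and Camp. Over the whole neutrophil list, which also holds these 3 genes, 2 of 17 were higher, or 11.8% against 2.24% of all genes. The list held 1 lower gene. Values ranged from −1.05 to 2.04 with a median of 0.29, against 0.14 at P1 over the 16 measured on both arrays. Among markers held by no epidermal group, the chemokine receptor gene Cxcr2 was at 0.63, Csf3r at 0.29, Retnlg at 0.36, Ngp at 0.31 and Mpo at −0.09. None of these 5 was past 2-fold, and their part in the S100a9 value was not tested.

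Cytokine genes split into a few high members and many near 0. Of 35 chemokine genes, 2 were past 2-fold higher (5.71%) and 0 lower, with a median of 0.20. Ccl20, which attracts cells that carry CCR6, was 3.50-fold higher at 1.81 and was at −0.41 at P1. The monocyte chemokines Ccl2 and Ccl7 were both at 0.81 at P9, and at −0.41 and −0.57 at P1. Cxcl16 was at 0.84 on 2 probes and the neutrophil chemokines Cxcl1, Cxcl3 and Cxcl5 were at 0.60, 0.72 and 0.65. Cxcl10, a chemokine induced by interferon, was the lowest at −0.92. Of 38 interferon response genes 0 were past 2-fold, with a median of −0.068, Iigp1 at −0.98 and Gbp3 at −0.84.

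In the interleukin-1 family Il1b alone was past 2-fold, at 1.04 at P9 against −0.46 at P1. Il1a was at 0.10, the antagonist Il1rn at 0.08, and the interleukin-36 genes named on the array as Il1f6 and Il1f9 at 0.48 and 0.12. Il33, an alarmin stored in the nucleus, was at −0.57. Among 28 genes of T helper, interleukin-6 and tumour necrosis factor families, 0 were past 2-fold, with a median of 0.07. Il6 was at 0.40, Tnf at 0.33, Il22 at 0.25, Il17f at −0.34 and Tslp at −0.10, and Il17a was blank. The highest was Ltb, a lymphotoxin subunit, at 0.82.

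Immediate early genes, transcription factors that cells switch on within minutes of a stimulus or of handling, held several members past 2-fold higher. Of 27 measured, 5 were past 2-fold higher (18.5%), 21 were above 0 and the median was 0.36, against 0.00 at P1 over the 26 measured on both arrays. Fosb was at 1.61 and Egr4 at 1.59, followed by Nr4a1 (1.36), Atf3 (1.23) and Fos (1.06). In that order, their P1 values were 0.78, 0.20, 0.34, 0.54 and −0.38. Jun, the partner of Fos in AP-1, was at −0.31, Junb at 0.23 and Jund at −0.11, so the Fos and Jun members were not shifted alike. Dusp1, a phosphatase of the same early response, was at 0.95 and Egr1 at 0.47. The time from death to extraction is not stated for either skin, and its part in these values was not tested.

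The start regions of Fosb and Nr4a1 are shown for a second short sequence. All 5 genes past 2-fold held TGACG or its reverse complement CGTCA, the core of the cyclic AMP response element, in their RefSeq windows. It was found in 9 of the 17 windowed genes of the group within 2-fold and in 20.8% of all windows. The 250 bases before the start are given on the strand of the gene, with that core in capitals.
Fosb, chr7:19310046-19310295, minus strand: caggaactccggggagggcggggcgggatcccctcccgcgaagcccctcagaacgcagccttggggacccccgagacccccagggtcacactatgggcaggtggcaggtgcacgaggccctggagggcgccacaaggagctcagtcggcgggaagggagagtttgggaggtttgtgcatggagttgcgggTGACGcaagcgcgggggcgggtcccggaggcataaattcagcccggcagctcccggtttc
Nr4a1, chr15:101266596-101266845, plus strand: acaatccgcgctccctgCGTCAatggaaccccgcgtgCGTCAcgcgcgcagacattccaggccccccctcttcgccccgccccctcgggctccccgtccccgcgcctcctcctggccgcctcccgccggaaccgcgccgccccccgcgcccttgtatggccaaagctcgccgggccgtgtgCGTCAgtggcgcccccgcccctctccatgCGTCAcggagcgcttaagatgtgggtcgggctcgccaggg
Fosb held 1 copy, at position −60 from the start, and Nr4a1 held 4. The match is a description of the letters.

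Growth factor pathways had single genes past 2-fold and medians near 0. Epgn, which encodes the epidermal growth factor receptor ligand epigen, was 2.56-fold higher at 1.36 and was at 0.03 at P1. The receptor Egfr was at −0.04 over 6 probes and the ligands Hbegf, Tgfa and Ereg were at 0.48, 0.14 and −0.17. In the TGF-beta and BMP group, 2 of 36 genes were higher and 1 was lower, with a median of 0.026. The higher ones were the BMP antagonists Nog, noggin, at 1.26 and Chrd, chordin, at 1.18. Smad7, the inhibitory Smad, was lower at −1.32 at P9 and −1.34 at P1. The receptors Bmpr1a and Bmpr1b were at −0.51 and −0.57, and the target genes Id1, Id2 and Id3 were at −0.16, 0.17 and −0.05.

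Wnt genes were spread about 0, with a median of −0.028 over 63 genes. Axin2, a target and inhibitor of the pathway, was the one gene past 2-fold, 2.95-fold lower at −1.56 and at −1.23 at P1. Other targets and inhibitors did not share its size, among them Lef1 at 0.24 on 3 probes, Sp5 at −0.41, Nkd1 at 0.13, Notum at 0.33, Znrf3 at −0.31 and Lgr5 at −0.30. Secreted members did not share a direction: Rspo2 was at −0.73, Sfrp2 at −0.69 and Sfrp4 at −0.59, whereas Rspo3 was at 0.13, Dkk3 at 0.23 and Wnt5a at 0.19. Hair follicle regulators had a median of −0.047 over 31 genes, with 0 past 2-fold, Shh at −0.42, Sox2 at −0.52, Foxn1 at 0.39 and Hr at 0.53. Notch genes had 13 of 20 below 0 and a median of −0.12, with Hey2 at −0.59 on 2 probes and Maml1 at −0.65.

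Keratin-associated proteins of the hair shaft lay mostly above 0 where they had values. Of 42 keratin-associated protein genes, a family grouped by symbol after the data were seen, 15 were blank at P9, against 2 at P1. The 27 measured had a median of 0.66 and 8 were past 2-fold higher (29.6%). Krtap4-16, Krtap4-13 and Krtap31-1 were at 1.48, 1.45 and 1.44 at P9, and at 0.90, 0.88 and 0.78 at P1. The family as a whole did not differ in this way: over the 25 genes with both values the median was 0.76 at P9 and 0.78 at P1, 14 were higher at P9, and 14 were past 2-fold higher at P1 against 8 at P9. Krt34, a hair shaft keratin, was at 1.01 at P9 and 1.48 at P1.

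Pigment genes lay mostly below 0, with 12 of 15 negative and a median of −0.30, against −0.12 at P1. Gene by gene the arrays differed little, with a median difference of P9 minus P1 of −0.037 and 7 of the 15 higher at P9. Oca2, a melanosomal transporter, was 2.37-fold lower at −1.24. The pigment enzymes Tyr, Tyrp1 and Dct were at −0.70, −0.73 and −0.41 at P9, and at −0.85, −0.69 and 0.0025 at P1. The receptor gene Kit was at −0.14, the lineage factor Mitf at −0.07, Pmel at −0.09 and the transporter Slc45a2 at 0.81.

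In the dendritic, T cell, macrophage and mast cell lists, few genes were past 2-fold. In the dendritic and Langerhans cell list, 13 of 15 were above 0, the median was 0.35, against 0.29 at P1, and Itgax was past 2-fold. Cd207, the Langerhans cell lectin langerin, was at 0.35, and the class II genes H2-Ab1, H2-Aa and Cd74 were at 0.45, 0.14 and 0.48. T cell genes had a median of 0.087 over 17, and 13 were above 0. The highest were Cd5 at 0.94, Lat at 0.92 and Cd3e at 0.76, the last on 2 probes with an SD of 1.47. Other members of the list were nearer to 0, with Cd3d at 0.215, Cd3g at −0.14, Zap70 at 0.01 and Cd8a at 0.03. Macrophage and monocyte genes had a median of 0.042 over 19, with Adgre1 at −0.21, Mrc1 at −0.67 and Csf1r at 0.24. Mast cell genes had 1 of 14 past 2-fold, Ms4a2 at 1.00, which loses its call when all genes are centred on the median, with Cpa3 at −0.12 and Cma1 at −0.11. Outside the lists, and named after their values were seen, the myeloid receptor genes Trem1 and Cd300e were both past 2-fold higher, Trem1 at 1.71, and Il13ra2, the X-linked decoy receptor of interleukin-13, was at 1.20 at P9 and 0.06 at P1.

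Sebaceous gland and lipid genes were shifted by less than 2-fold, with a few exceptions. Of 21 gland genes, 13 were above 0 with a median of 0.28 and 0 past 2-fold. The direction rests on genes with a single probe, since the 7 members with 2 or more probes had a median of −0.057. Krt79 of the gland duct was at 0.82, the elongase Elovl3 at 0.80 and the desaturase Scd1 at 0.67, while the lipid carrier Fabp5 was at −0.73 and Cd36 at −0.43. Among desaturases and elongases, Fads2, the delta-6 desaturase, was 2.26-fold higher at 1.18, Scd2 was at −0.82 and Fads1 at −0.38. Fatty acid and cholesterol synthesis had a median of 0.17 over 24 genes, with Fasn at 0.24 and Lss at 0.46, and 0 past 2-fold.

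Of the adipocyte genes, 1 brown fat gene and no white fat gene was past 2-fold. Ucp1, which uncouples respiration in brown fat, was at 1.57 or 2.96-fold higher at P9, and at −0.40 at P1. The other brown fat genes were lower in value, with Elovl3 at 0.80, Cidea at 0.73, Fabp3 at 0.66, Cox8b at 0.13, Prdm16 at −0.04 and Dio2 at −0.09. Of the 13 measured, 10 were above 0, and they ranged from −0.089 to 1.57 with a median of 0.34. The list as a whole was not higher at P9 than at P1. Over the 12 genes with both values the median was 0.345 at P9 and 0.3795 at P1, and 5 had the higher value at P9. Over 16 white adipocyte genes the median was −0.028, against 0.42 at P1, with Adipoq at 0.42, Plin1 at −0.34 and Lep at −0.08. Whether brown fat lay in the dissected tissue was not tested.

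Single genes of the dermal matrix were past 2-fold lower. Of the small leucine-rich proteoglycans, which bind collagen fibrils, 2 of 13 were past 2-fold lower (15.4%) against 0.465% of all genes, and the median was −0.26. That median also rests on single probes, being 0.069 over the 4 members with 2 or more. Aspn, asporin, was 3.07-fold lower at −1.62 and had −1.69 at P1. Ogn, osteoglycin, was 2.41-fold lower at −1.27 and had only −0.20 at P1. Dcn, decorin, was at −0.45 at P9 against −1.56 at P1. Lum, Omd and Kera were between −0.75 and −0.55, and Prelp and Podn were at 0.35 and 0.32. Among 33 collagen and elastic fibre genes the median was −0.067. Col1a2 was lower at −1.20 at P9 and −1.12 at P1, but Col1a1, the other chain of type I collagen, was at 0.07 and Col3a1 at −0.04, each on 2 probes. Lox, the cross-linking oxidase, was at −0.98 and Col14a1 at −0.81, with −0.11 and −0.14 at P1. Nid2, a basement membrane nidogen named after its value was seen, was at −1.10.

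Other tissues of the sample gave smaller shifts at P9 than at P1. The 28 skeletal muscle genes were at a median of 0.23 at P9 against 0.73 at P1, with Myh4 at 0.82 and Ryr1 at 0.80. Mstn, which encodes the muscle growth inhibitor myostatin, was lower at −1.35 at P9 and at −0.25 at P1. Endothelial genes had a median of −0.018 at P9 against 0.43 at P1, and all 14 had the lower value at P9. The median of 8 Schwann cell genes was 0.15, with Mag at 0.84 on 2 probes. The part of these tissues in the other values was not tested.

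Metabolic and cell cycle groups were centred near 0. Respiratory chain subunits had a median of −0.015 over 48 genes and glycolysis of 0.005 over 19, with 0 genes past 2-fold in either. The lactate transporter Slc16a3 was at −0.64 at P9 and 0.89 at P1. Over 18 clock genes the median was 0.20, with the repressors Nr1d1 at 0.82 and Nr1d2 at −0.85. Of 39 cell cycle genes 1 was lower, Esco2, a cohesin acetyltransferase, at −1.46, and the proliferation markers Mki67, Top2a and Pcna were at −0.22, −0.15 and −0.07.

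**Figure D2:**
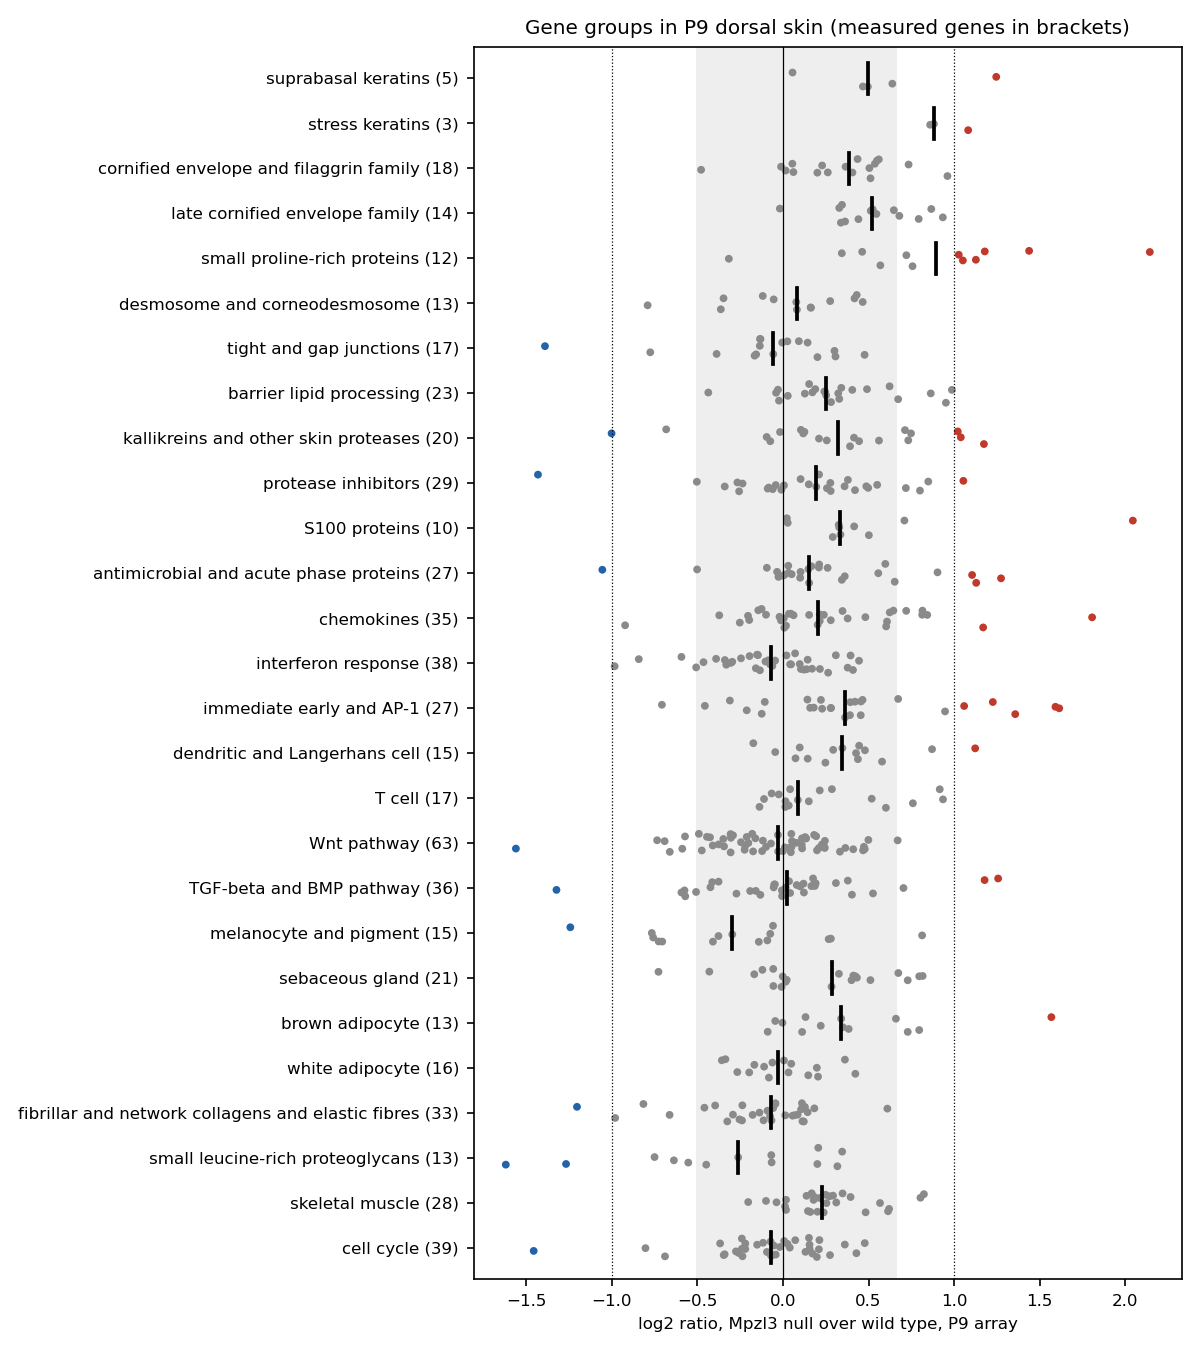
Each point is the P9 log2 ratio of null over wild type of 1 gene, by gene group, with a black bar at the group median, the range from the 5th to the 95th percentile of all genes in grey and dotted lines at 2-fold. Red genes are past 2-fold higher and blue ones lower; the small proline-rich and immediate early groups hold the most red points, 6 and 5.

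Many of the lowest genes fell outside the gene groups above. Mup5 was 4.85-fold lower at −2.28, against −0.74 at P1. Major urinary proteins are secreted pheromone carriers known from liver and glands. With Mup6 at −1.27 and Mup8 at −1.02, 3 of the 4 genes measured were past 2-fold lower, while Mup3 was at −0.20. This is 75% of a very small family, against 0.465% of all genes. At P1, 2 of the 4 were past 2-fold lower, and the median was −0.91, against −1.14 at P9. Mup6 was at −1.14 at P1. The liver genes Alb, Apoa1 and Ttr were at 0.13, −0.17 and −0.04. Pcdh8, a protocadherin, was 3.38-fold lower at −1.76 and at −0.02 at P1. Cep20, a centrosomal protein gene, was at −1.69, Tvp23b at −1.55 and the X-linked, junctional actin-binding gene Pof1b at −1.46. In that order, their P1 values were −0.82, −1.745 and −2.09. Numbered zinc finger genes, grouped by symbol after the data were seen, made up 10 of the lower genes. These are 2.95% of the 339 measured, against 0.465% of all genes. In this family 247 lay below 0, whereas 53.4% of all genes lay above 0. The family was not lower at P9 alone, since 41 were past 2-fold lower at P1. Over the 330 with both values the median was −0.205 at P9 and −0.294 at P1. Olfactory and vomeronasal receptor genes, which are not known for a role in skin, held 5 of the 10 highest values. Of the 819 measured, 127 were past 2-fold higher (15.5%), against 2.24% of all genes, and only 26 had 2 or more probes. The shares of higher genes in the protease and immediate early groups, 15% and 18.5%, were of similar size. Those of the neutrophil, antimicrobial and chemokine groups, 11.8%, 11.1% and 5.71%, were below the receptor share. Those of the small proline-rich and keratin-associated families, 50% and 29.6%, were above it.

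Setting P9 beside P1 separates the genes called at P9. Of the 409 higher genes, 143 were past 2-fold higher at P1 too, 351 had a positive P1 value, 20 a negative one and 38 none. Of the 85 lower genes, 44 were also past 2-fold lower at P1, 79 had a negative value, 4 a positive one and 2 none. Most genes called at P9 therefore had the same sign on both arrays, with a median P1 value of 0.85 for the higher and −1.04 for the lower ones. The shares called at P1 were 1.72% higher and 1.17% lower of 17233 genes. Both arrays carry null RNA in the same dye.

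Some genes had different values on the arrays. Outside the receptors and clone names, the largest differences of P9 minus P1 among higher genes were those of Xist at 4.70, S100a9 at 2.63, Ccl20 at 2.22, Ucp1 at 1.97 and Serpinb3a at 1.71. Rbm3, an X-linked gene for an RNA-binding protein known to be induced by cold, followed at 1.57, with a P9 value of 1.21. Cstdc4, a cystatin domain gene, was at 1.07 at P9 and −0.49 at P1, and Il1b, Sprr2d and Fos came next with differences of 1.503, 1.44 and 1.43. Among lower genes the differences were −1.91 for Serpina3b, −1.77 for the cytochrome P450 gene Cyp2f2, −1.74 for Pcdh8, −1.54 for Mup5, −1.20 for the X-linked gene Itm2a and −1.12 for both Camp and Mgarp. With 1 array per age these differences have no replicate check. Those of Rbm3 and Fos also compare unlike sets of probes. Rbm3 had 1 probe with a value at P9 and 2 at P1, and Fos had 2 at P9 and 1 at P1. The Fos probe with a value on both arrays was at 1.795 at P9 and −0.376 at P1.

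**Figure D3:**
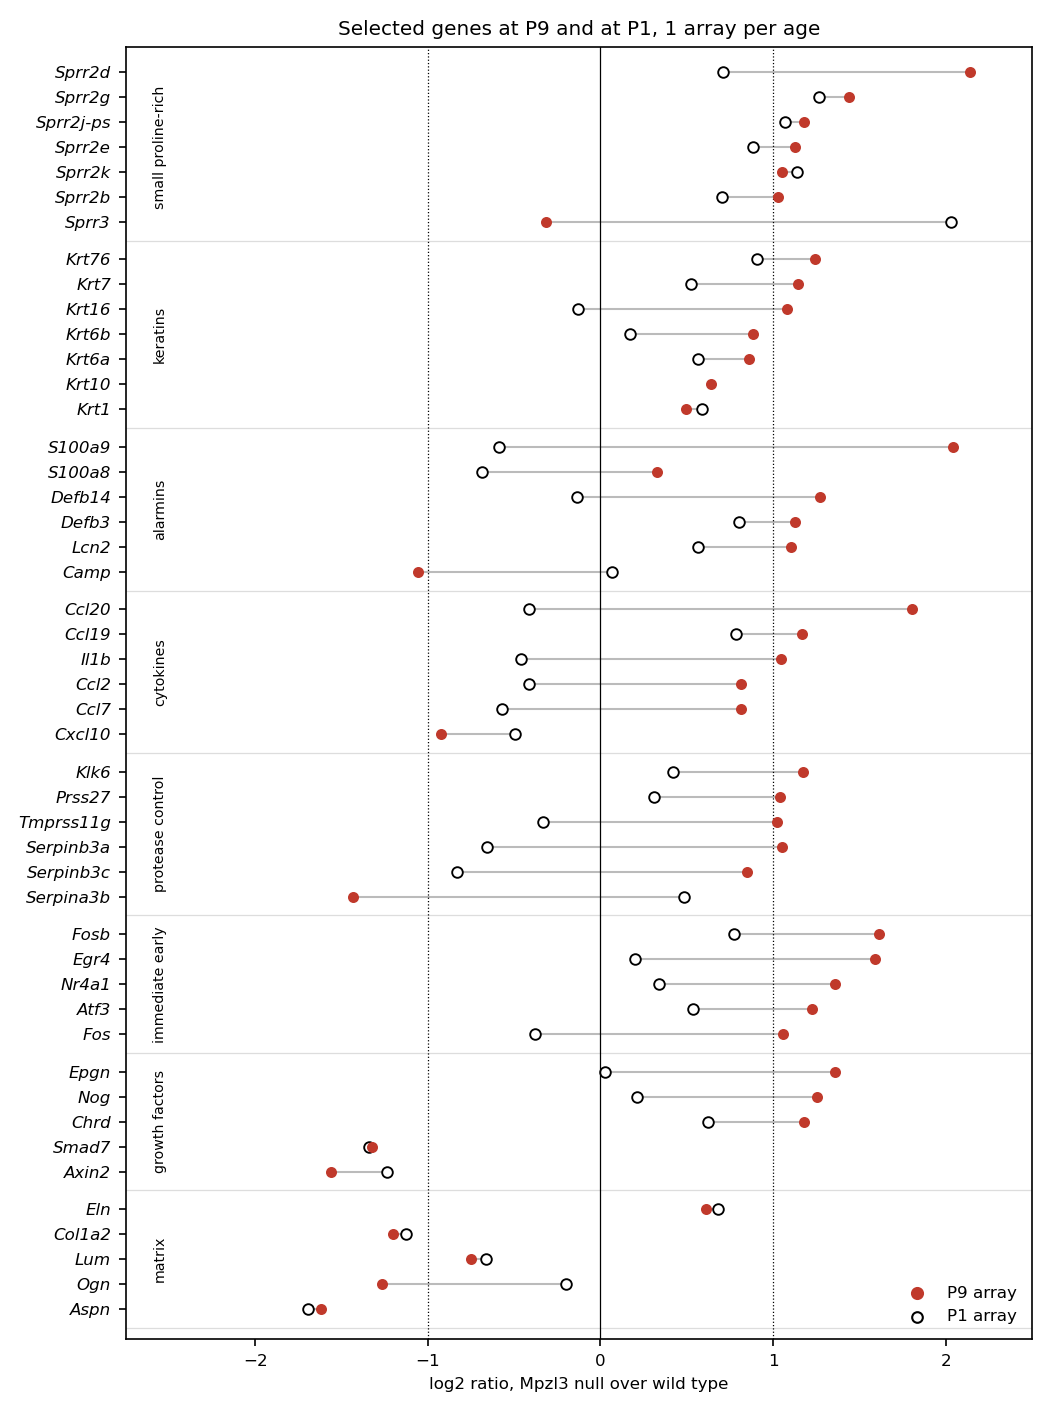
Log2 ratios of null over wild type at P9 (red points) and at P1 (open points) for selected genes of 8 groups, joined by a line, with dotted lines at 2-fold. S100a9, Ccl20 and Serpinb3a lie above 0 at P9 and below 0 at P1, while Smad7, Aspn, Col1a2 and Eln have nearly the same value at both ages; Krt10 was blank at P1.

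**Figure D4:**
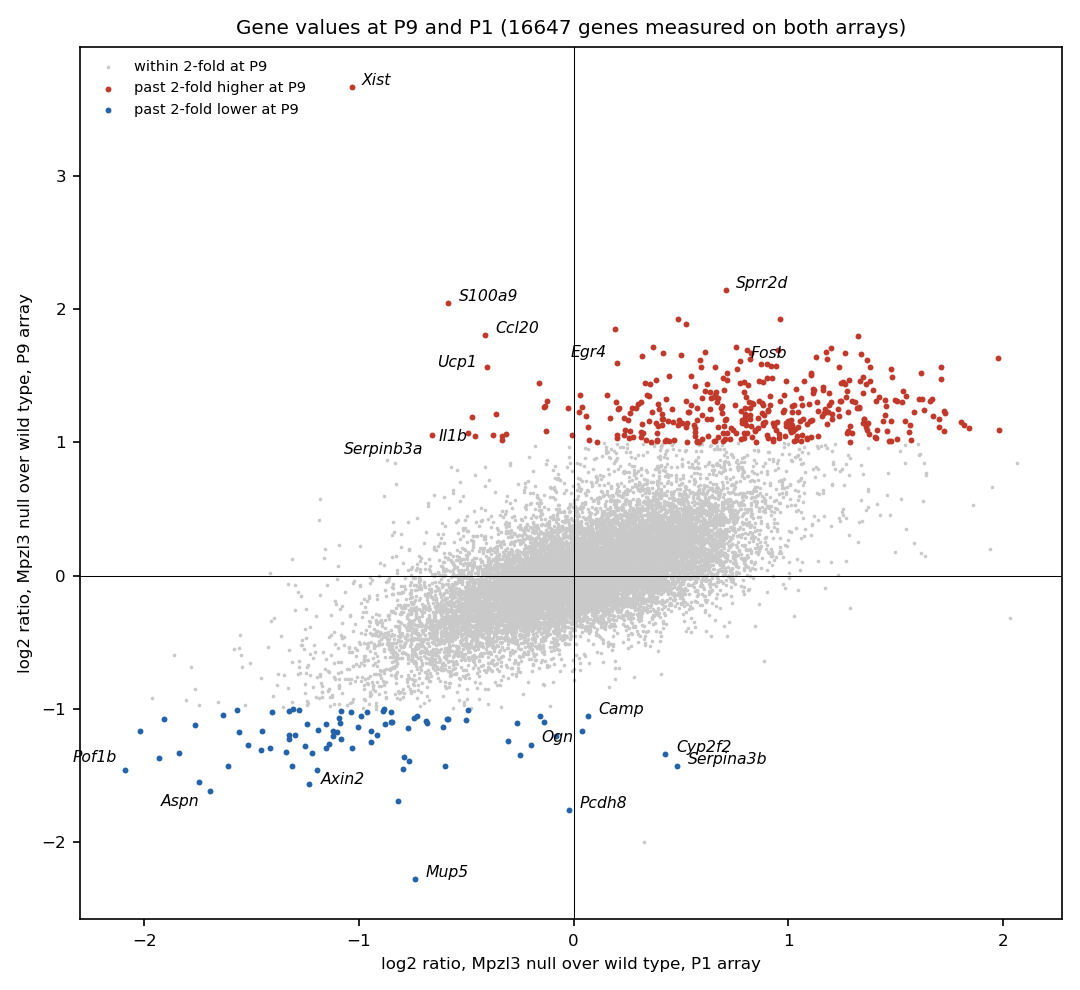
Each point is 1 of 16647 genes measured on both arrays, with its P1 log2 ratio of null over wild type on the horizontal axis and its P9 ratio on the vertical axis. Genes past 2-fold at P9 are red (higher) or blue (lower); most have the same sign on both axes, and S100a9, Ccl20, Ucp1 and Xist lie at the upper left.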

How the data were processed

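Total RNA of P9 and P1 dorsal skin, Mpzl3 null in Cy5 and wild type in Cy3, was hybridised to 2-colour arrays, 1 per age, per the labels. The authors deposited log2 ratios; that the logarithm has base 2 was inferred from the values, and its direction follows the labelled dyes. The background correction, dye normalization, centring and blank filter are not stated; the column medians were 0.005 at P9 and −0.007 at P1. Of 39212 rows, 31337 named 1 gene, 40 named several and 7744 none, and 91 were control spots; only the first were used, and 31210 of them were matched to a RefSeq entry, whose current symbol was used. Blank rows made up 4.71% at P9 and 11.3% at P1. No column belonged to an unmapped sample.

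A gene's value is the mean of its probes. With 1 array per age no test was run, and precision is limited by the number of arrays. The spread between probes says nothing of animals. Named genes were Mpzl3, the sex-linked genes, the 10 highest and 10 lowest, those past 2-fold on 2 or more probes, the members past 2-fold, largest and defining members of 51 gene lists, and the largest differences of P9 minus P1, without clone names. Keratin-associated, receptor, zinc finger and Mup families were grouped by symbol after the data were seen, and the members and all lists were chosen with earlier results of these data known. Alternatives changed the threshold, the probe summary, the centring and scaling and the genes used. The code that assigns calls was tested on simulated data, which says nothing about error between animals. Python 3.11.15, numpy 2.4.6, pandas 2.3.3 and matplotlib 3.10.9 were used.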

Additional observations from a re-analysis of the deposited data

Results flagged for a closer look

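Named genes past 2-fold at P9 whose P1 value had the opposite sign, by more than the SD between probes of 0.36, are given here. Their P1 probes also had to have 1 sign. That rule left out the X-linked genes Xist and Rbm3, at −1.03 and −0.36 at P1. The difference between the ages was not tested, since each age has 1 array. Higher at P9 and below 0 at P1 were S100a9 (2.04 and −0.58, P9 then P1), Ccl20 (1.81 and −0.41), Ucp1 (1.57 and −0.40), Cstdc4 (1.07 and −0.49), Fos (1.06 and −0.38), Serpinb3a (1.05 and −0.66) and Il1b (1.04 and −0.46). Lower at P9 and above 0 at P1 were Serpina3b (−1.43 and 0.48) and Cyp2f2 (−1.34 and 0.43). Of these 9 genes only Serpinb3a was read by 2 probes on both arrays, and both of its probes changed sign.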

How the results depend on the processing

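No paired analysis was possible because each age has 1 array and no result comes from a test. The counts of genes higher at P9 and genes lower at P9 moved most with the fold threshold. At 1.5-fold 1128 genes were higher and 603 lower, and at 3-fold 36 and 6. After centring both arrays and giving them one spread, 567 were higher and 180 lower, against 409 and 85 as deposited. Where every probe had to pass on its own, 11 higher and 3 lower genes with 2 or more probes were left. The other settings tried kept these counts within 1.5 times, among them leaving out receptors and numbered zinc finger genes (280 higher and 75 lower). So did leaving out the X and Y chromosomes (398 higher and 73 lower), an alternative chosen after seeing the data. Centring on the median ended the call of 9 genes just past the threshold, namely Asic2, Dand5, Krtap31-2, Ms4a2, Nsg2, Olfr399, Olfr441, Plppr2 and Slc4a5. Over members with 2 or more probes the sebaceous median was −0.057 against 0.28, and the proteoglycan median 0.069 against −0.26, so the sign of both depends on genes with a single probe. Medians close to 0 also changed sign under at least 1 setting for the Mpzl3 relatives, white adipocyte, respiratory chain, hair follicle regulator, endothelial, macrophage, caspase and glycolysis lists. For P9 beside P1, higher at both and P9 beside P1, lower at both, the counts were 143 and 44 genes, or 107 and 54 after scaling. Signal over background was not analysed here, so dim probes could not be set aside.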
